A study of Homo sapiens with 12 samples.

Results

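The ligands and receptors of axon guidance formed a set of 67 genes on the array. Members were taken by symbol, as the Eph receptors, ephrins, semaphorins, plexins, neuropilins, netrins, Slits, Robo receptors and UNC5 receptors to which the array annotation gives a probe set with a single gene. The 67 genes, of 19775 genes on the array, were read by 168 probe sets, and the probe set with the highest mean log2 signal over the 12 arrays stood for each gene. Of the members 49 were tested, of 13784 genes tested in all, because their signal reached the array's median on 3 or more of the 12 arrays.

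Axon guidance molecules were named for the growing nerve fibre, which they attract or repel, and they act in many other cells that migrate or form boundaries. Ephrins on the surface of a cell bind Eph receptor kinases on its neighbour, and both cells can signal. Semaphorins act through plexins, in the secreted class with neuropilins as co-receptors, Slits act through Robo receptors, and netrins act through DCC and the UNC5 receptors. The same families act in blood vessels and epithelia and are often altered in carcinomas.

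SW13 is a human line from an adrenal cortical carcinoma, described as lacking BRG1, the ATPase of SWI/SNF chromatin remodelling complexes that SMARCA4 encodes. SW13+BRG1 is a stable line in which BRG1 was put back on the pREP7 plasmid, and SW13+vector carries the empty plasmid. Each was irradiated with UV at 10 J/m2 or mock treated and collected 6 h later, with 3 Affymetrix U133 Plus 2.0 arrays in each of 4 groups (SW13+BRG1 after UV, SW13+BRG1 after mock treatment, SW13+vector after UV and SW13+vector after mock treatment). The 3 arrays of a group are described as independent biological replicates, but they repeat a single line, so an effect of BRG1 cannot be told apart from other differences between these lines. All values are signals of whole cultures, in which fewer cells with a transcript and less of it per cell cannot be told apart.

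SMARCA4 transcript did not by itself check the labels. Of its 7 tested probe sets, 2 had the higher mean in SW13+BRG1 cells after mock treatment. The one with the highest mean log2 signal averaged 213.1 in SW13+BRG1 and 539.1 in SW13+vector cells after mock treatment (log2 fold change -1.28, standard error 0.42, limma adjusted p = 0.0355), against the labels. Another averaged 136.8 in SW13+BRG1 and 92.1 in SW13+vector cells. Which of these probe sets can detect the introduced copy was not tested. CD44, whose transcription is known to need BRG1, had the higher mean in SW13+BRG1 cells on all 11 of its tested probe sets, after mock treatment and after UV. SW13+BRG1 and SW13+vector therefore name arrays by their labels, and every direction between the lines rests on those labels.

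In all 4 groups the array numbered 3 correlated less with the other arrays of its group (r = 0.894 to 0.920 over the log2 signals of 32622 probe sets) than those correlated with each other (0.929 to 0.949). Defining markers of the adrenal cortex were at or above the array median on all 3 arrays of a group for 1 or 2 of the 8 genes measured, chiefly FDX1, and NR5A1, the factor that defines this tissue, averaged 10.6 to 18.5. Neuron markers passed that mark for 3 of 12 genes in every group. Their summed signal was 3086 to 4747 in SW13+BRG1 and 7020 to 7979 in SW13+vector cells over both treatments, most of it from TUBB3 and MAP2. After mock treatment MAP2 averaged 957.7 in SW13+BRG1 and 5296 in SW13+vector cells, and TUBB3 averaged 2562 in SW13+BRG1 and 1922 in SW13+vector cells. Summed endothelial markers were at 76.0 to 142.9 in SW13+BRG1 and 91.6 to 187.3 in SW13+vector cells, and 5 blood markers at 74.1 to 121.8 and 140 to 228.8 in the same lines. The part of these differences in the results below was not tested.

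Between the lines, members were called in both directions. A member was called where limma gave a Benjamini-Hochberg adjusted p under 0.05 over all tested genes and the fold change was over 2. In mock-treated cells 6 of the 49 tested members (12.2%) were higher in SW13+BRG1 cells, as were 9.38% of all tested genes, and 10 members (20.4%) were lower, as were 5.27% of all tested genes. After UV, 7 members (14.3%) were higher, against 9.85% of all tested genes, and 13 (26.5%) were lower, against 6.86%. The median log2 fold change in mock-treated cells was -0.25 for the tested members and 0.001 for all tested genes, and after UV it was -0.11 for the members and -0.02 for all. Both comparisons called 14 members, mock treatment alone called 2 and UV alone called 6. The higher members were the ligands NTN4, EFNA1, EFNA4 and SEMA4B, the co-receptor NRP1 and the receptor PLXNB2, and after UV also the ligand SLIT3. The lower members included 4 Eph receptors, ROBO1, ROBO2 and the secreted semaphorins SEMA3A and SEMA3D. A member could pass the signal filter through a single line. NRP1 and NTN4 had such signals in SW13+BRG1 cells alone and 5 tested members had them in SW13+vector cells alone.

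**Figure D1:**
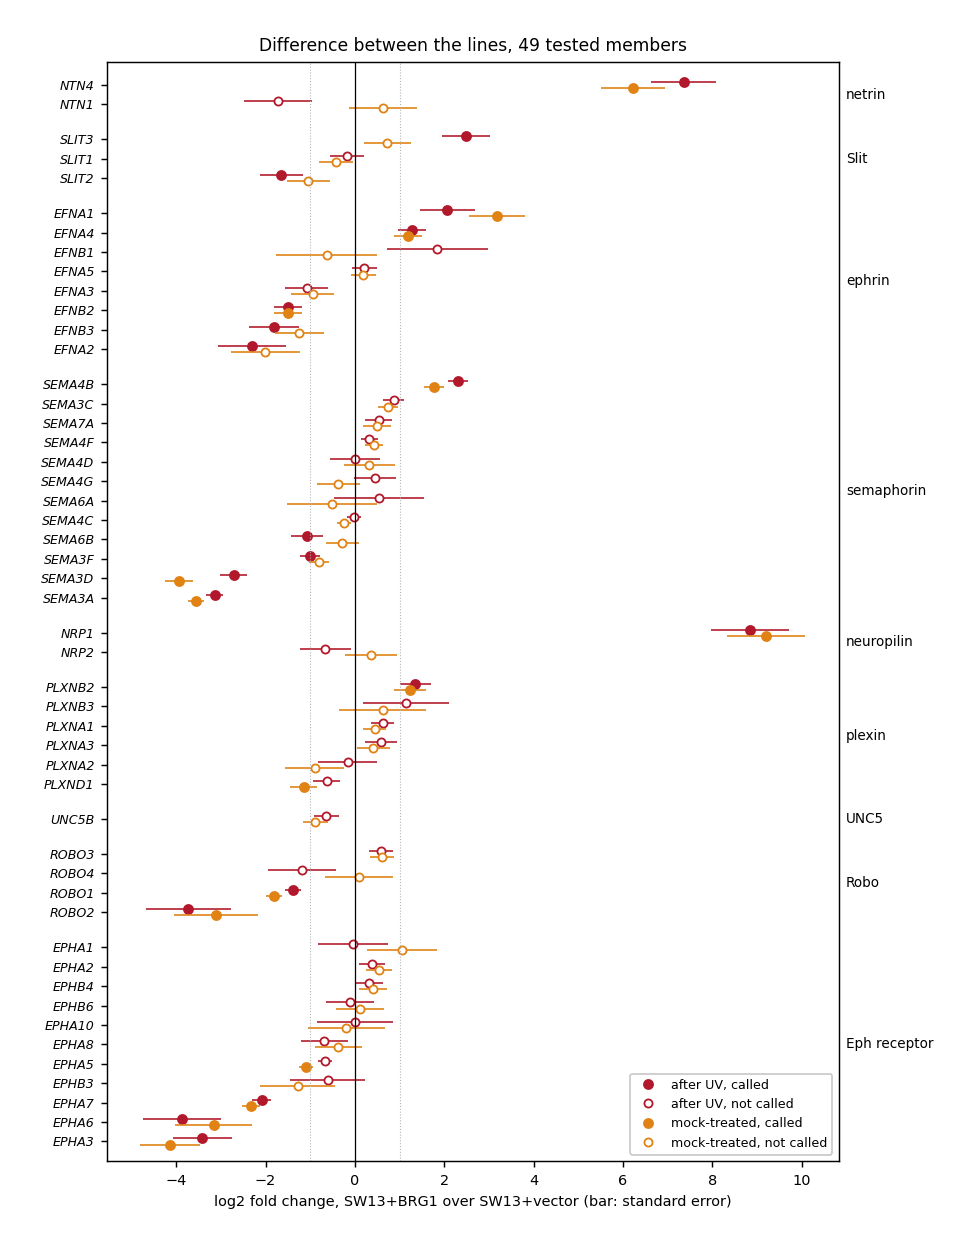
Log2 fold change of SW13+BRG1 over SW13+vector (x axis, with standard errors) for the 49 tested members by family (y axis), after UV (red) and after mock treatment (orange). Filled points were called and dotted lines mark a fold of 2. NRP1 and NTN4 lie farthest to the right at 9.21 and 6.22 in mock-treated cells, and EPHA3, SEMA3D and SEMA3A lie at -4.14, -3.94 and -3.55.

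Promoter sequences were read from RefSeq on GRCh38.p14, from 250 bases before to 50 bases after the start of a gene, for 57 of the 67 members. The GC box GGGCGG, bound by SP factors, was in 77.2% of these 57 promoters on either strand, and in 44.6% of all 27305 promoters of this length. No filter on gene type was applied to these 27305, so members and all may differ in gene type, and this was not tested. The AP-1 motif TGANTCA was in 1.75% of the members' promoters (PLXNC1) and in 7.76% of all, and TATAAA was in 1.75% (EFNB2) and in 12% of all, each on either strand. Matches of different motifs cannot overlap. The median number of CG dinucleotides was 21 for members and 14 for all promoters. Printed are the promoters of 3 members called higher and 3 called lower between the lines, because each direction holds some with and some without GC boxes, whose letters are in capitals. They lie at chr12:95791106-95791405 on the minus strand (NTN4), chr1:155127626-155127925 on the plus strand (EFNA1), chr15:90201080-90201379 on the plus strand (SEMA4B), chr3:89107371-89107670 on the plus strand (EPHA3), chr6:93419510-93419809 on the minus strand (EPHA7) and chr7:85187007-85187306 on the minus strand (SEMA3D). GC boxes numbered 5 in EFNA1, where 2 of them share a base, 5 in SEMA4B and 4 in EPHA7, and NTN4, EPHA3 and SEMA3D had no match in this window. CG dinucleotides numbered 21 in NTN4, 28 in EFNA1, 37 in SEMA4B, 17 in EPHA3, 24 in EPHA7 and 14 in SEMA3D.
NTN4: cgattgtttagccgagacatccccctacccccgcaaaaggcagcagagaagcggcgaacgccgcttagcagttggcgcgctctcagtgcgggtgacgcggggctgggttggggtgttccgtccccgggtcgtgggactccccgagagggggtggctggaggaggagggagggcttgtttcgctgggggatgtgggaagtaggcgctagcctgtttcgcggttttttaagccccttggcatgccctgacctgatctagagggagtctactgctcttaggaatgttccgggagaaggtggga
EFNA1: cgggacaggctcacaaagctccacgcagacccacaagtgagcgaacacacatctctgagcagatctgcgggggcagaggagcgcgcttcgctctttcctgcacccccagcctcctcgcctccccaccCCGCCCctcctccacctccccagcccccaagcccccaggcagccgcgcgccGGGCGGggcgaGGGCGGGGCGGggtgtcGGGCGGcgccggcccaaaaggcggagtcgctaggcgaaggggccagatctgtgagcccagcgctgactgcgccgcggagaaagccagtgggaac
SEMA4B: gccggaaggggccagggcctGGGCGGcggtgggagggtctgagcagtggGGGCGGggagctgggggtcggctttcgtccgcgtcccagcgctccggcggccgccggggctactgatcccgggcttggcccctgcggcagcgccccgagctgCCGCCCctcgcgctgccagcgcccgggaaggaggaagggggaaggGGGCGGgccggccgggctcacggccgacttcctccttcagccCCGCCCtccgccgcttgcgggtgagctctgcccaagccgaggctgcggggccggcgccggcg
EPHA3: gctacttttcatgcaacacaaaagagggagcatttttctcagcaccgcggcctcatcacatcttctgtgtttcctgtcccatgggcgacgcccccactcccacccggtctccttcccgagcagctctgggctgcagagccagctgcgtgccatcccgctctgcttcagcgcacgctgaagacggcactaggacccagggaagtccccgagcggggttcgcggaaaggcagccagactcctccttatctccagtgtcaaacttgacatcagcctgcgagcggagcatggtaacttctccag
EPHA7: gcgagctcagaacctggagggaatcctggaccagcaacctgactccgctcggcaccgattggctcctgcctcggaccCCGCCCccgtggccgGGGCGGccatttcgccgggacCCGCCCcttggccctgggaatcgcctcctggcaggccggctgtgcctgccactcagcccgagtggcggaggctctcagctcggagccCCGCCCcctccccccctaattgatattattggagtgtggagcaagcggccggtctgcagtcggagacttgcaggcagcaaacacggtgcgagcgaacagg
SEMA3D: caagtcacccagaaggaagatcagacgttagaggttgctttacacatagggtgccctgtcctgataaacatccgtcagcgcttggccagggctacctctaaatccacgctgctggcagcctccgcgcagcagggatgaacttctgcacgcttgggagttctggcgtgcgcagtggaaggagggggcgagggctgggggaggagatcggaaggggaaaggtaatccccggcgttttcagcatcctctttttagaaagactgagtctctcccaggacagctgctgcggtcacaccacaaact

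NTN4, a netrin of basement membranes that resembles laminin chains, was higher in SW13+BRG1 cells. Its signals were 266.3, 288.4 and 229.4 in SW13+BRG1 cells after UV and 320.1, 338.5 and 347.3 after mock treatment, against 6.46, 0.720 and 0.861 in SW13+vector cells after UV and 4.84, 2.17 and 8.61 after mock treatment. All 6 SW13+BRG1 arrays were far above all 6 SW13+vector arrays, on which NTN4 lay below the array median. The log2 fold change was 6.22 (standard error 0.72, limma adjusted p = 2.63e-05) in mock-treated cells and 7.36 (0.72, adjusted p = 5.45e-06) after UV. With 16 added to each signal it was 4.06 in mock-treated cells and 3.90 after UV, and without SW13+vector UV array 1 the value after UV was 8.37. NTN1, which attracts or repels axons through DCC and UNC5 receptors, averaged 25.8 in SW13+BRG1 and 21.7 in SW13+vector cells after mock treatment. Its arrays overlapped there and it was not called. After UV it averaged 8.37 in SW13+BRG1 and 24.3 in SW13+vector cells (-1.73, 0.76, adjusted p = 0.105). Those arrays did not overlap, but it was not called.

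EFNA1 and EFNA4, membrane-anchored ligands of EphA receptors, were higher in SW13+BRG1 cells. EFNA1 had signals of 82.7, 68.4 and 53.4 in SW13+BRG1 cells after UV and 169.8, 169.4 and 120.0 after mock treatment, against 35.2, 4.53 and 25.6 in SW13+vector cells after UV and 12.4, 13.1 and 29.0 after mock treatment. The lines did not overlap in either treatment, and SW13+vector UV array 2 was the lowest of all. This gave a log2 fold change of 3.17 (standard error 0.63, limma adjusted p = 0.0018) in mock-treated cells and 2.07 (0.63, adjusted p = 0.0217) after UV. With 16 added to each signal it was 2.33 in mock-treated cells and 1.24 after UV. The call after UV was lost without SW13+BRG1 UV array 1 (1.92) or 2 (2.06) and without SW13+vector UV array 2 (1.16).

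EFNA4 had signals of 54.2, 62.8 and 102.0 in SW13+BRG1 cells after UV and 162.8, 157.0 and 184.3 after mock treatment, against 21.8, 43.1 and 25.7 in SW13+vector cells after UV and 66.4, 66.6 and 92.01 after mock treatment. The lines were apart in each treatment, and UV arrays lay below mock arrays in both lines. The log2 fold change between the lines was 1.18 (standard error 0.31, limma adjusted p = 0.0118) in mock-treated cells and 1.28 (0.31, adjusted p = 0.00646) after UV. On chromosome 1 EFNA4, EFNA3 and EFNA1 follow each other with no other protein-coding gene between them. EFNA3, the ligand in the middle, lay on the other side of 0 at -0.94 in mock-treated cells and -1.08 after UV, and was not called (adjusted p = 0.17 and 0.106). It was called lower after UV (-1.69) when SW13+BRG1 UV array 2 was left out.

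Among the other ephrins, EFNB2, a transmembrane ligand of EPHB4 and other EphB receptors, was lower in SW13+BRG1 cells. Its signals were 34.9, 34.5 and 14.5 in SW13+BRG1 cells after UV and 58.1, 58.5 and 48.4 after mock treatment, against 79.9, 70.3 and 71.3 in SW13+vector cells after UV and 164.0, 161.9 and 138.9 after mock treatment. No array of a line reached those of the other in the same treatment. On the log2 scale the fold change was -1.50 in mock-treated cells (standard error 0.32, limma adjusted p = 0.003) and -1.50 after UV (0.32, adjusted p = 0.00253). On its other probe set the difference was -1.52 (0.53, adjusted p = 0.0614) in mock-treated cells and -0.75 (0.53, adjusted p = 0.361) after UV, not called.

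EFNB3, another transmembrane ephrin, was lower after UV, with a mean of 26.8 in SW13+BRG1 and 76.4 in SW13+vector cells (log2 fold change -1.82, standard error 0.56, limma adjusted p = 0.023). This call was lost without SW13+BRG1 UV array 2 (-1.07) and without SW13+vector UV array 1 (-1.71) or 2 (-1.81), and the other probe set was at 0.43. In mock-treated cells EFNB3 was at -1.25 (0.56, adjusted p = 0.118) and was called, at the same value, without SW13+BRG1 UV array 2. EFNA2, an anchored ligand of EphA receptors, was also lower after UV, with means of 5.01 in SW13+BRG1 and 26.2 in SW13+vector cells (-2.31, 0.76, adjusted p = 0.0331). It was lost without SW13+BRG1 UV array 1 (-2.14) or 3 (-2.22) and without SW13+vector UV array 2 (-2.14) or 3 (-2.04), and with 16 added to each signal it was at -0.97. In mock-treated cells it was at -2.01 (0.76, adjusted p = 0.0673) and was called at -2.64 without SW13+BRG1 mock array 3. EFNA5 and EFNB1 were not called between the lines. All 8 ephrins were tested. In mock-treated cells 2 (25%) were called higher in SW13+BRG1 cells and 1 (12.5%) lower, against 9.38% and 5.27% of all tested genes. After UV 2 (25%) were higher and 3 (37.5%) lower, against 9.85% and 6.86%.

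The secreted semaphorins SEMA3A and SEMA3D, which repel axons through neuropilins and plexins, were lower in SW13+BRG1 cells. SEMA3A had signals of 53.0, 80.7 and 56.3 in SW13+BRG1 cells after UV and 67.6, 90.2 and 72.4 after mock treatment, against 584.6, 509.8 and 555.3 in SW13+vector cells after UV and 931.2, 909.9 and 843.2 after mock treatment. The lines were wide apart and the arrays of each group close together. Between the lines the log2 fold change was -3.55 (standard error 0.18, limma adjusted p = 1.42e-08) in mock-treated cells and -3.14 (0.18, adjusted p = 4.36e-08) after UV. All 3 of its probe sets were called lower in both treatments.

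SEMA3D, the next protein-coding gene on chromosome 7, had signals of 16.2, 10.98 and 7.70 in SW13+BRG1 cells after UV and 31.5, 44.7 and 26.8 after mock treatment, against 86.3, 76.2 and 59.4 in SW13+vector cells after UV and 515.5, 521.1 and 509.6 after mock treatment. None of the 4 groups overlapped, and mock-treated SW13+vector cells stood highest. The log2 fold change between the lines was -3.94 (standard error 0.31, limma adjusted p = 6.7e-07) in mock-treated cells and -2.72 (0.31, adjusted p = 1.88e-05) after UV. Its other probe set was called lower as well, at -5.29 (0.88) in mock-treated cells and -4.50 (0.88) after UV. SEMA3C, a secreted semaphorin of the same stretch of chromosome 7, had means of 2109 in SW13+BRG1 and 1263 in SW13+vector cells after mock treatment. Its arrays did not overlap between the lines and its adjusted p was 0.027, but the difference of 0.74 (0.23) stayed under 2-fold and was not called. After UV its difference of 0.86 (0.23, adjusted p = 0.0105) was under 2-fold too, and it was called at 1.11 without SW13+BRG1 UV array 3.

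SEMA4B, a transmembrane semaphorin, was higher in SW13+BRG1 cells. Its signals were 203.5, 214.7 and 254.7 in SW13+BRG1 cells after UV and 381.5, 263.0 and 378.2 after mock treatment, against 35.5, 57.6 and 44.4 in SW13+vector cells after UV and 97.4, 90.2 and 111.5 after mock treatment. Every SW13+BRG1 array was above every SW13+vector array. The log2 fold change was 1.76 (standard error 0.22, limma adjusted p = 5.74e-05) in mock-treated cells and 2.31 (0.22, adjusted p = 4.8e-06) after UV.

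SEMA3F, a secreted semaphorin that acts through NRP2, had signals of 101.3, 106.1 and 69.1 in SW13+BRG1 cells after UV and 92.7, 107.2 and 99.98 after mock treatment, against 203.0, 196.9 and 150.8 in SW13+vector cells after UV and 187.8, 200.9 and 142.8 after mock treatment. The lines did not overlap, and the difference lay near 2-fold. It was called after UV (log2 fold change -1.01, standard error 0.22, limma adjusted p = 0.00327) and not in mock-treated cells (-0.81, 0.22, adjusted p = 0.0136). The call was lost without SW13+BRG1 UV array 3 (-0.81) and without SW13+vector UV array 1 (-0.93) or 2 (-0.95), each time on the fold. SEMA6B, a transmembrane semaphorin, was called lower after UV, with means of 33.5 in SW13+BRG1 and 70.8 in SW13+vector cells (-1.07, 0.36, adjusted p = 0.0376). It was lost without SW13+BRG1 UV array 1 (-1.10) or 3 (-0.83) and without SW13+vector UV array 1 (-0.80) or 2 (-1.14), and its other tested probe set was at 0.15. Of the 20 semaphorins 12 were tested. In mock-treated cells 1 (8.33%) was called higher in SW13+BRG1 cells and 2 (16.7%) lower, against 9.38% and 5.27% of all tested genes. After UV 1 (8.33%) was higher and 4 (33.3%) lower, against 9.85% and 6.86%.

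Of the Slits, the secreted ligands of Robo receptors, SLIT3 was called higher and SLIT2 lower after UV. SLIT3 averaged 44.4 in SW13+BRG1 and 8.12 in SW13+vector cells after UV (log2 fold change 2.48, standard error 0.53, limma adjusted p = 0.00285). Its difference in mock-treated cells was 0.73 (0.53, adjusted p = 0.362), while its other tested probe set was called there at 3.05 (0.73, adjusted p = 0.00859). SLIT2 averaged 27.7 in SW13+BRG1 and 72.0 in SW13+vector cells after UV (-1.65, 0.48, adjusted p = 0.0169). Without SW13+BRG1 UV array 3 it was at -0.94 and without SW13+vector UV array 1 at -1.56, not called in either case. After UV the other tested probe sets of SLIT2 were at -0.71 (0.49, adjusted p = 0.341) and -0.61 (0.35, adjusted p = 0.251), not called. The mean over its probe sets was then at -0.99 and not called. In mock-treated cells the chosen probe set of SLIT2 was at -1.04 (0.48, adjusted p = 0.125). Another was called at -1.14, and the remaining one was at -0.78 (0.49, adjusted p = 0.325), not called. The value of -1.04 was called without SW13+BRG1 UV array 3. SLIT1 was not called.

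NRP1, the co-receptor through which SEMA3A acts and which also binds VEGF, was higher in SW13+BRG1 cells. Its signals were 1464, 1431 and 1379 in SW13+BRG1 cells after UV and 1880, 1854 and 1419 after mock treatment, against 8.27, 0.649 and 5.46 in SW13+vector cells after UV and 2.14, 11.1 and 1.011 after mock treatment. NRP1 was at 1379 or more on every SW13+BRG1 array and below the array median on every SW13+vector array. On the log2 scale the fold change was 9.21 (standard error 0.87, limma adjusted p = 3.94e-06) in mock-treated cells and 8.85 (0.87, adjusted p = 5.68e-06) after UV. Its size rests on the low signals. It was 6.40 in mock-treated cells and 6.13 after UV with 16 added to each signal. It was 10.2 without SW13+vector mock array 2 and 8.45 without array 3, and after UV 9.56 without SW13+vector UV array 1 and 7.73 without array 2. Another probe set was called higher in both treatments, with means of 524.3 in SW13+BRG1 and 1.52 in SW13+vector cells after mock treatment. NRP2, the related co-receptor for SEMA3F, averaged 31.9 in SW13+BRG1 and 25.5 in SW13+vector cells after mock treatment and was not called. The study designed RT-PCR primers for 2 members, NRP1 on chromosome 10 and EPHA3 on chromosome 3, which are printed in lower case as the oligos for the members at either end of the range of the chosen probe sets in mock-treated cells.
NRP1 forward primer: aatatcttaccaggcagcc
NRP1 reverse primer: ccttggctgaggacaacttt
EPHA3 forward primer: gcatactcaacaaaacccatg
EPHA3 reverse primer: gagtgagttaccagaaataa

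**Figure D2:**
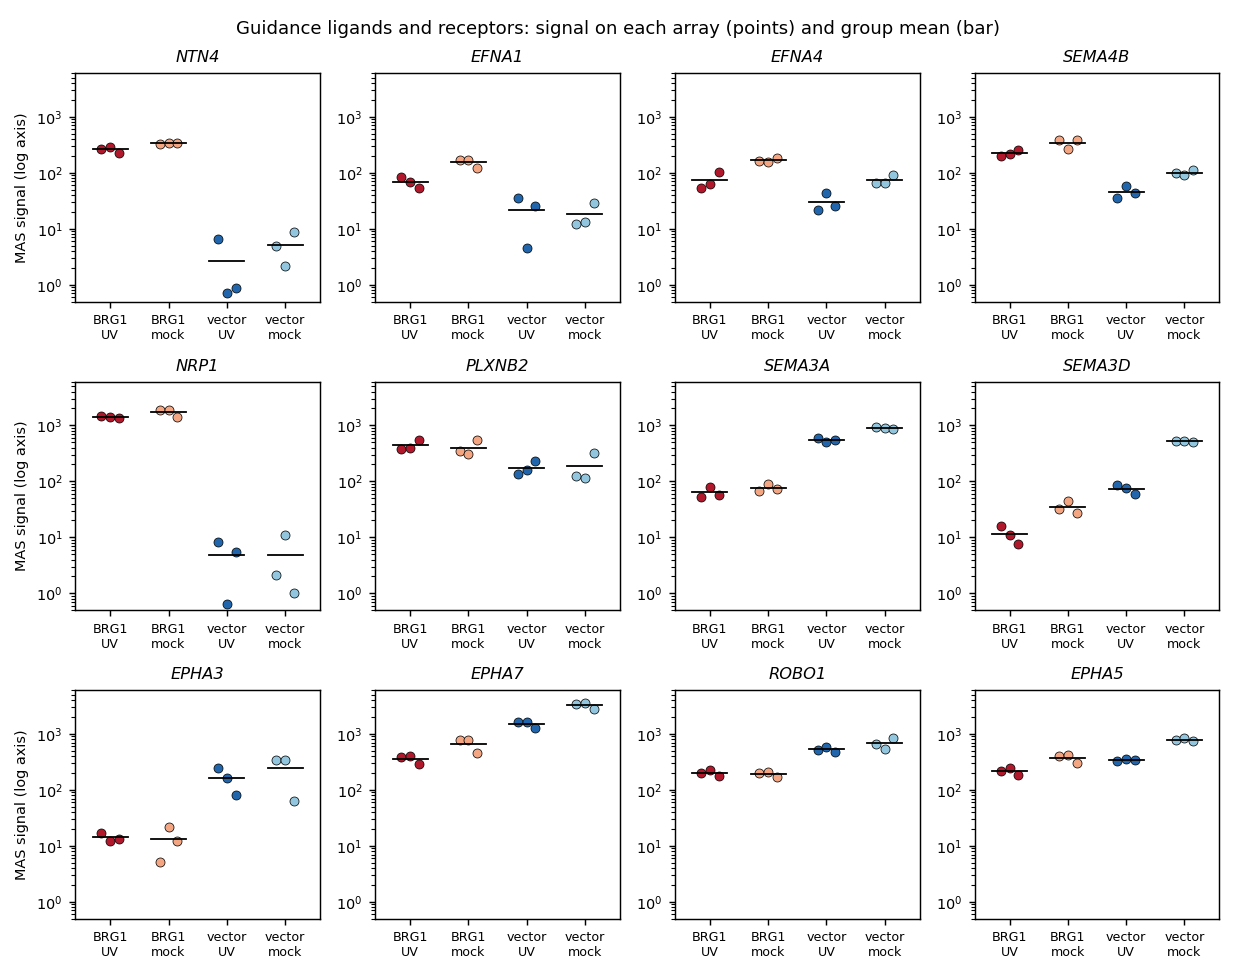
Signal of 12 members on each array (points, log axis) with the mean of each group (bar), in SW13+BRG1 cells after UV and mock treatment and in SW13+vector cells after UV and mock treatment. NTN4 and NRP1 lie above 200 on every SW13+BRG1 array and below 12 on every SW13+vector array, and SEMA3D lies near 515 in mock-treated SW13+vector cells alone.

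Of the plexins, the signalling receptors of semaphorins, 6 were tested. In mock-treated cells 1 (16.7%) was called higher in SW13+BRG1 cells and 1 (16.7%) lower, against 9.38% and 5.27% of all tested genes. After UV 1 (16.7%) was higher and 0 lower, against 9.85% and 6.86%. PLXNB2, a receptor of SEMA4C, had signals of 377.1, 401.7 and 544.8 in SW13+BRG1 cells after UV and 345.6, 309.8 and 543.4 after mock treatment, against 136.9, 160.0 and 226.3 in SW13+vector cells after UV and 125.3, 113.9 and 314.1 after mock treatment. The lines overlapped after mock treatment, where SW13+vector array 3 was above SW13+BRG1 array 2, and not after UV. Between the lines the log2 fold change was 1.23 (standard error 0.35, limma adjusted p = 0.0174) in mock-treated cells and 1.35 (0.35, adjusted p = 0.00933) after UV. The call in mock-treated cells was lost without SW13+BRG1 mock array 3 (0.99) and without SW13+vector mock array 1 (1.03) or 2 (0.97). The mean over the 2 probe sets of PLXNB2, of which 1 was tested, was at 0.84 in mock-treated cells and 0.61 after UV. It was not called in either treatment. PLXND1, the receptor of SEMA3E, averaged 40.5 in SW13+BRG1 and 90.2 in SW13+vector cells after mock treatment (-1.15, 0.30, adjusted p = 0.0117). It was not called without SW13+BRG1 mock array 3 (-0.93) or without SW13+vector mock array 3 (-0.94), and of its other probe sets one was at -1.99 and the other at 0.11, neither called. After UV the chosen probe set was at -0.63 (0.30, adjusted p = 0.138) and the one at -1.99 was called at -2.72 (0.86).

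The Robo receptors ROBO1 and ROBO2, which lie side by side on chromosome 3, were both lower in SW13+BRG1 cells. ROBO1 had signals of 201.6, 225.5 and 176.8 in SW13+BRG1 cells after UV and 199.4, 205.8 and 168.5 after mock treatment, against 515.9, 586.5 and 479.6 in SW13+vector cells after UV and 657.0, 538.6 and 837.8 after mock treatment. The lines did not overlap. This gave a log2 fold change of -1.81 (standard error 0.17, limma adjusted p = 4.96e-06) in mock-treated cells and -1.39 (0.17, adjusted p = 4.7e-05) after UV. ROBO2 averaged 7.36 in SW13+BRG1 and 48.95 in SW13+vector cells after mock treatment (-3.12, 0.95, adjusted p = 0.0246) and 7.55 against 51.2 after UV (-3.73, 0.95, adjusted p = 0.00827). With 16 added to each signal the difference was -1.49 in mock-treated cells and -1.57 after UV. In mock-treated cells the call of ROBO2 was lost without SW13+BRG1 array 2 (-2.87) or 3 (-2.62) and without SW13+vector array 1 (-3.05) or 3 (-2.93), and it held at -3.86 without SW13+BRG1 array 1. After UV it moved to -4.90 without SW13+BRG1 array 2 and to -2.87 without array 3. ROBO3, which acts in midline crossing, and ROBO4, the endothelial member, were not called.

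The EphA receptors EPHA3, EPHA5, EPHA6 and EPHA7, kinases that bind A class ephrins, were lower in SW13+BRG1 cells. EPHA3 had signals of 17.1, 12.04 and 13.2 in SW13+BRG1 cells after UV and 5.07, 21.4 and 12.5 after mock treatment, against 243.9, 166.2 and 82.0 in SW13+vector cells after UV and 340.2, 339.2 and 64.0 after mock treatment. All SW13+BRG1 arrays were below all SW13+vector arrays, and the array numbered 3 was the lowest of both SW13+vector groups. The log2 fold change was -4.14 (standard error 0.66, limma adjusted p = 0.000384) in mock-treated cells and -3.42 (0.66, adjusted p = 0.0014) after UV. It was -4.94 in mock-treated cells without SW13+vector array 3, and with 16 added to each signal -2.94 in mock-treated cells and -2.47 after UV. Another probe set of EPHA3 was also called lower in both treatments (adjusted p = 7.69e-09 in mock-treated cells). It was at 0.775 to 2.49 on the SW13+BRG1 arrays, far below the array median, and averaged 1164 in mock-treated SW13+vector cells, so no fold is given.

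EPHA7 had signals of 380.0, 406.7 and 285.3 in SW13+BRG1 cells after UV and 774.1, 781.1 and 450.6 after mock treatment, against 1623, 1634 and 1291 in SW13+vector cells after UV and 3469, 3550 and 2808 after mock treatment. The 4 groups did not overlap. The log2 fold change between the lines was -2.33 (standard error 0.21, limma adjusted p = 2.33e-06) in mock-treated cells and -2.09 (0.21, adjusted p = 6.09e-06) after UV. All 4 of its probe sets were called lower in both treatments, at -2.82 to -2.33 in mock-treated cells.

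EPHA5 had signals of 220.3, 246.2 and 183.0 in SW13+BRG1 cells after UV and 404.7, 417.7 and 296.5 after mock treatment, against 333.6, 349.0 and 342.2 in SW13+vector cells after UV and 771.7, 835.3 and 759.0 after mock treatment. The lines did not overlap within a treatment. The difference was -1.10 (standard error 0.16, limma adjusted p = 0.000155) in mock-treated cells, which fell below 2-fold at -0.94 without SW13+BRG1 mock array 3. After UV it was -0.67 (0.16, adjusted p = 0.00518), under 2-fold and not called. In mock-treated cells the other probe sets of EPHA5 were at -1.11 (0.16), called, and at -0.49 (0.51, adjusted p = 0.595), not called. The mean over its probe sets was there at -0.90 and not called. EPHA6 averaged 8.25 in SW13+BRG1 and 71.0 in SW13+vector cells after mock treatment (-3.16, 0.87, adjusted p = 0.0143) and 8.81 against 72.9 after UV (-3.87, 0.87, adjusted p = 0.00374). With 16 added to each signal its difference was -1.84 in mock-treated cells and -1.89 after UV. Without SW13+BRG1 mock array 1 it was -2.81 and not called, and after UV it was -4.69 without SW13+BRG1 array 1 and -2.53 without array 2. The other tested probe set of EPHA6 was at -1.67 (0.81, adjusted p = 0.182) in mock-treated cells, not called. After UV it was called at -2.73 (0.81, adjusted p = 0.0252). EPHA3 and EPHA6 lie on chromosome 3 with 5 protein-coding genes between them.

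EPHA2, which also acts in epithelia, averaged 328.2 in SW13+BRG1 and 222.1 in SW13+vector cells after mock treatment, and EPHB4, the vascular partner of EFNB2, averaged 260.0 and 206.6 in the same groups. Their arrays overlapped and neither was called. The other 5 tested Eph receptors without a call were EPHA1, EPHA8, EPHB3 and the pair EPHA10 and EPHB6, known to lack kinase activity. They had group means of 10.4 to 39.5. UNC5B, a receptor through which netrins repel, was the single tested member of its family. It averaged 43.9 in SW13+BRG1 and 82.8 in SW13+vector cells after mock treatment (log2 fold change -0.89, standard error 0.28, limma adjusted p = 0.0276), under 2-fold and not called. It was called at -1.05 without SW13+vector mock array 2. Another of its probe sets was called lower, at -1.98 (0.32) in mock-treated cells and -1.25 (0.32) after UV.

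After UV few members were called lower and no member was called higher. In SW13+BRG1 cells 0 of 49 tested members were higher after UV, against 0.609% of all tested genes, and 3 (6.12%) were lower, against 6.57% of all. In SW13+vector cells 0 were higher, against 0.66% of all, and 6 (12.2%) were lower, against 4.16%. At an unadjusted p under 0.05 there were 9 of 49 members in SW13+BRG1 cells, against 4277 of all 13784 tested genes, and SLIT1 alone was above 0. In SW13+vector cells there were 10 of 49, each below 0, against 3797 of 13784. The Welch test of the methods called 0 higher members in either line. The median change was -0.28 on the log2 scale in SW13+BRG1 and -0.17 in SW13+vector cells, where all tested genes had 0.03 in either line, and 32 members in SW13+BRG1 and 30 in SW13+vector cells lay below 0. SEMA3D, EFNA4 and EFNB2 were called in both lines, and EPHA5, EPHA7 and SEMA4B in SW13+vector cells. These 6 were also called between the lines, in comparisons that share the same arrays.

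**Figure D3:**
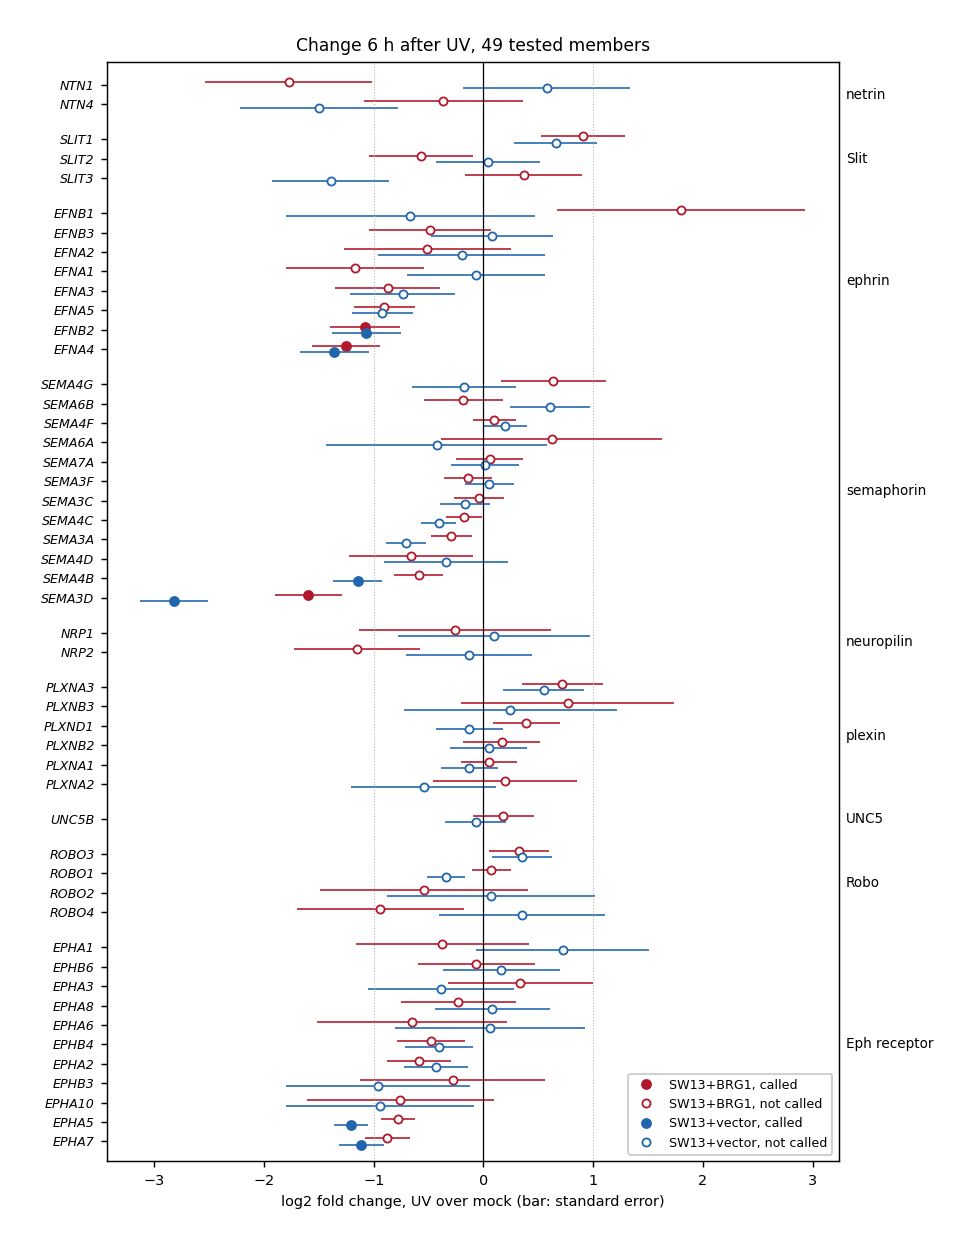
Log2 fold change of UV over mock (x axis, with standard errors) for the 49 tested members by family (y axis), in SW13+BRG1 (red) and SW13+vector cells (blue). Filled points were called and dotted lines mark a fold of 2. All called members lie to the left of 0, from -2.82 for SEMA3D in SW13+vector cells to -1.07 for EFNB2.

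SEMA3D was called lower after UV in both lines. With the signals given above, UV arrays lay below mock arrays in both lines, and the log2 fold change was -1.60 (standard error 0.31, limma adjusted p = 0.00279) in SW13+BRG1 and -2.82 (0.31, adjusted p = 0.000151) in SW13+vector cells. The change did not appear on its other probe set, which averaged 8.11 after UV and 6.49 after mock treatment in SW13+BRG1 cells (0.69, 0.88), and 152.5 after UV and 199.0 after mock treatment in SW13+vector cells (-0.10, 0.88). On that probe set mock-treated SW13+vector array 3 was at 55.1, against 259.5 and 282.5 on arrays 1 and 2. The call of SEMA3D after UV therefore rests on a single probe set. In SW13+BRG1 cells it was lost with 16 added to each signal (-0.86).

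EFNA4, with 1 probe set, fell after UV by 1.25 (log2) in SW13+BRG1 cells (standard error 0.31, limma adjusted p = 0.0124) and by 1.36 in SW13+vector cells (0.31, adjusted p = 0.0116). The call was lost without UV array 1 of the line, at -1.07 in SW13+BRG1 and -1.15 in SW13+vector cells. EFNB2 fell by 1.08 (0.32, adjusted p = 0.0297) in SW13+BRG1 and by 1.07 (0.32, adjusted p = 0.0408) in SW13+vector cells, while its other probe set was at 0.25 (0.53) and -0.51 (0.53), not called. In SW13+BRG1 cells its call was lost without UV array 3 (-0.66), mock array 1 (-1.03) or mock array 2 (-1.03). In SW13+vector cells it was lost without any of that line's 6 arrays (-1.14 to -1.02) and without SW13+BRG1 mock array 1 or 2 (-1.07 in each), which change the estimate of spread alone. EFNA5, a further EphA ligand, averaged 83.0 after UV and 154.2 after mock treatment in SW13+BRG1 cells, and 71.3 and 142.7 in SW13+vector cells. Its changes of -0.90 and -0.92 (0.28 each) had an adjusted p of 0.036 and 0.0425 but stayed under 2-fold. On another of its probe sets UV was called lower in both lines, at -1.46 (0.27) and -1.27 (0.27). The chosen one was called without SW13+BRG1 UV array 3 (-1.03) and without SW13+vector mock array 3 (-1.27).

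In SW13+vector cells EPHA5 fell after UV by 1.21 on the log2 scale (standard error 0.16, limma adjusted p = 0.000473). Its change of -0.78 (0.16, adjusted p = 0.00364) in SW13+BRG1 cells was under 2-fold. On another probe set it was called lower in both lines, at -1.75 (0.16) in SW13+BRG1 and -2.08 (0.16) in SW13+vector cells, and on the remaining one it was not. EPHA7 fell by 1.11 in SW13+vector cells (0.21, adjusted p = 0.00385) and was at -0.88 (0.21, adjusted p = 0.00963) in SW13+BRG1 cells, under 2-fold. It was called there at -1.14 without SW13+BRG1 mock array 3. Of its 4 probe sets the chosen one alone was called after UV in SW13+vector cells, the others being at -1.15 to -0.23. SEMA4B fell by 1.14 in SW13+vector cells (0.22, adjusted p = 0.00495) and was at -0.59 (0.22, adjusted p = 0.0849) in SW13+BRG1 cells. Without SW13+vector UV array 1 its change there was -0.97, under 2-fold.

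**Figure D4:**
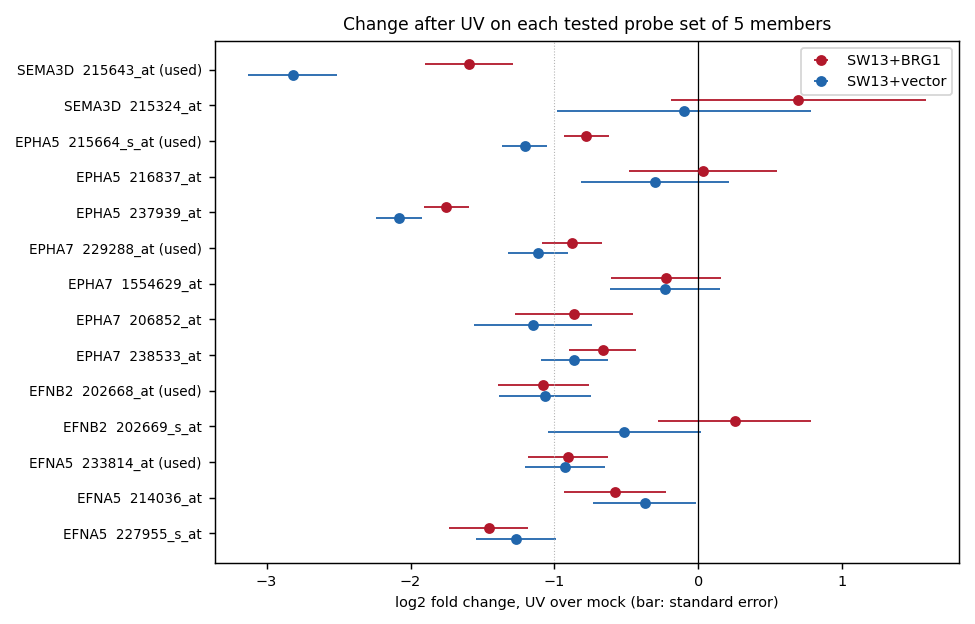
Log2 fold change of UV over mock (x axis, with standard errors) on each tested probe set of 5 members (y axis), in SW13+BRG1 (red) and SW13+vector cells (blue). The probe sets used for SEMA3D and EFNB2 lie at -1 or below, and their other probe sets lie between -0.51 and 0.69. All 4 probe sets of EPHA7 lie below 0.

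NRP1 and NTN4 were not called after UV in either line. NRP1 changed by -0.26 (standard error 0.87) in SW13+BRG1 cells, where the mean was 1425 after UV and 1718 after mock treatment. NTN4 changed there by -0.36 (0.72), with means of 261.4 after UV and 335.3 after mock treatment and arrays that did not overlap. Both standard errors draw on the spread in all 4 groups. These include SW13+vector cells, where both genes lay below the array median. In SW13+vector cells, where NTN4 was below the array median, it was called lower at -2.51 without UV array 1. SLIT3 was called lower in SW13+vector cells at -1.99 without mock array 1, against -1.39 (0.53, adjusted p = 0.104) with all arrays. EFNA1 was at -1.17 (0.63, adjusted p = 0.232) in SW13+BRG1 cells with arrays that did not overlap. It was called there, at the same value, by limma on the compared arrays alone (adjusted p = 0.0126) and without SW13+vector UV array 2. With 16 added to each signal it was called at -1.01 (limma adjusted p = 0.0378). A floor at the 40th percentile and the Welch test without adjustment also called it. EFNA3 was called at -1.48 in SW13+BRG1 cells without UV array 2.

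Whether UV acted differently in the lines was tested as an interaction, the change in SW13+BRG1 minus that in SW13+vector cells. It was called for 0 of 49 members by limma, against 0.0943% of all tested genes. At an unadjusted p under 0.05 there were 3 of 49, against 755 of all 13784 tested genes. They were SEMA3D (1.22, standard error 0.44, adjusted p = 0.656), SLIT3 (1.76, 0.75, adjusted p = 0.859) and NTN1 (-2.35, 1.08, adjusted p = 0.908). With 16 added to each signal SEMA3D passed at 1.71 (0.28, adjusted p = 0.0313). This offset shrinks changes of low signals most. It moved the change from -1.60 to -0.86 in SW13+BRG1 cells, where the mock signal was lower, and from -2.82 to -2.57 in SW13+vector cells. The larger interaction thus came with the offset. On the other probe set of SEMA3D the interaction was 0.80 (1.25), not called. For EPHA5, EPHA7 and SEMA4B, called after UV in SW13+vector cells alone, it was 0.43 (0.22), 0.24 (0.29) and 0.56 (0.32), so their UV effects were not shown to differ between the lines.

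The untested members were 2 Eph receptors (EPHA4 and EPHB1), 8 semaphorins (SEMA3B, SEMA3E, SEMA3G, SEMA4A, SEMA5A, SEMA5B, SEMA6C and SEMA6D), 3 plexins (PLXNA4, PLXNB1 and PLXNC1), the netrins NTN3 and NTN5, and UNC5A, UNC5C and UNC5D. Their signals were 0.39 to 42.5 with a median of 7.89, and no difference was tested for them. Of the tested members, 20 were at or above the array median on all 12 arrays, and 27 were called in no comparison. Neither count was made for all tested genes. Besides those named above, the members without a call were PLXNA1, PLXNA2 and PLXNA3, which signal beside neuropilins, PLXNB3, the membrane-bound semaphorins SEMA4C, SEMA4D, SEMA4F, SEMA4G and SEMA6A, and SEMA7A, which is held by a lipid anchor. Their group means ran from 9.58 for PLXNB3 in mock-treated SW13+vector cells to 512.9 for SEMA4C in the same cells. SEMA4C, the transmembrane ligand of PLXNB2, averaged 430.8 in SW13+BRG1 and 512.9 in SW13+vector cells after mock treatment (log2 fold change -0.25, standard error 0.16), with overlapping arrays.

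Other genes of the same pathway, from a list of 93 further receptors, ligands and cytoplasmic effectors of which 81 were tested, were called in both directions between the lines. In mock-treated cells 11 (13.6%) were called higher, against 9.38% of all tested genes, and 3 (3.7%) lower, against 5.27%. After UV 12 (14.8%) were called higher, against 9.85% of all, and 2 (2.47%) lower, against 6.86%. On the chosen probe sets the largest rises in mock-treated cells were in MET, the HGF receptor and a partner of plexins (log2 fold change 6.19, standard error 0.35, limma adjusted p = 3.29e-08), and in DPYSL2, the collapsin response mediator that acts below SEMA3A (3.41, 0.14, adjusted p = 1.52e-09). They were followed by NGEF, an exchange factor that acts below EphA receptors (3.32, 0.71), and MICAL2, of the plexin-binding MICAL family (3.00, 0.36). MET averaged 2478 in SW13+BRG1 and 34.4 in SW13+vector cells, and DPYSL2 averaged 1426 and 136.1. CNTN1, a neural adhesion protein (-2.50, 0.73), PTCH1, the Hedgehog receptor (-1.23, 0.32), and ENAH, an actin regulator (-1.07, 0.12), were lower. Of the cytoplasmic effectors 9 of 55 tested were higher and 1 lower in mock-treated cells, and of the other guidance ligands 0 of 12 were called. At an unadjusted p under 0.05 there was 1 of these 12, against 5221 of all 13784 tested genes. UV against mock gave 1 higher (1.23%, against 0.609% of all) and 7 lower (8.64%, against 6.57%) of the 81 in SW13+BRG1 cells. It gave 0 higher (0.66% of all) and 7 lower (8.64%, against 4.16%) in SW13+vector cells, with PTCH1, NCK1, GSK3B, SRGAP1 and TIAM2 lower in both lines. The one that was higher was CNTN1 (2.59, 0.73, adjusted p = 0.0237). Its means were 3.69 after mock treatment and 21.5 after UV in SW13+BRG1 cells, and 20.9 and 19.7 in SW13+vector cells. These lie near or below the array medians of 21.1 to 25.3. Both calls of CNTN1 rest on the same mock-treated SW13+BRG1 arrays.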

How the data were processed

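Total RNA of the 12 cultures was hybridized by the authors to Affymetrix U133 Plus 2.0 arrays and summarized with MAS under default settings. The deposited values are signal intensities on a linear scale, which the authors scaled on each array to a mean target of 125. For MAS, the version was not given in the sources used here. Detection calls were not analysed here, and the 3 arrays of a group limit the precision.

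The deposited signals were log2-transformed and otherwise kept as they were. Of 54675 probe sets 41097 belong to 1 gene by the array annotation, 1801 to several and 11777 to none, and 62 are controls. All 32622 tested probe sets entered limma 3.58.1 in R 4.3.3 with 4 group means and a prior on the variance that varies with signal. With 1 probe set chosen for each gene, p values were adjusted over 13784 tested genes. Values of other probe sets of a member were adjusted over the 32622 tested probe sets. The fit was also run on simulated arrays with independent noise and 200 changed probe sets. Deviations shared by arrays of the same number were not simulated, so that run does not test the fit against them. Standard errors are those of the fit. Groups came from the sample titles, and p values measure the spread between the arrays of a line. The authors' lists used a Welch test, which was run as an alternative.

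Members were given their signal on each array where they were called and their higher group mean was at or above the 75th percentile of the array signals, or where the study measured them by RT-PCR. The members, the lists and the tests were chosen with earlier results of these data known. Alternatives covered the filter, the normalization, low signals, the block of experiment numbers, the arrays in the fit, the variance prior, the fold threshold, the adjustment, the Welch test, the mean over probe sets and leaving out each array. A fit on the arrays numbered 1 and 2 was added after the data had been seen. Promoters and gene order came from RefSeq tables, with coordinates printed for GRCh38.p14 promoters only.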

Additional observations from a re-analysis of the deposited data

How the results depend on the processing

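The 45 called changes of members kept their direction under every alternative run. With the experiment number as a replicate block all 45 stayed called. The numbers were not treated as a pairing, because deviations of arrays of the same number did not correlate above 0.1 in every pair. They correlated at 0.015 to 0.293 (median 0.106 over 18 pairs). Different numbers correlated at -0.223 to 0.137 (median -0.124 over 36 pairs). These correlations were 0.075 to 0.141 for number 1, 0.015 to 0.102 for number 2 and 0.179 to 0.293 for number 3. What the arrays numbered 3 share was thus left in the spread of the main fit. Quantile normalization lost 3 calls, a common median 1, no filter 2, log2 of the signal plus 16 10, fits on the compared arrays alone 8, averaging a gene's probe sets 14, and the arrays numbered 1 and 2 alone, chosen after seeing the data, 8. The calls lost with 16 added to the signal were EFNA2, EFNA4, SEMA3F and SEMA6B between the lines after UV, PLXND1 between them after mock treatment, SEMA3D and EFNB2 after UV in SW13+BRG1 cells, and EFNA4, EFNB2 and SEMA4B after UV in SW13+vector cells. Those lost on averaging were EFNA2, EFNB3, PLXNB2, SEMA3F, SEMA6B and SLIT2 between the lines after UV, and EPHA5, PLXNB2 and PLXND1 after mock treatment. The rest were SEMA3D and EFNB2 after UV in both lines and EPHA7 after UV in SW13+vector cells. Members lower after UV numbered 3 in SW13+BRG1 cells, and 1 with quantile normalization and 6 with no fold threshold. In SW13+vector cells they numbered 6, and 3 with log2 of the signal plus 16 and 3 with the mean over probe sets. The interaction passed for 1 member with log2 of the signal plus 16. The Welch test with Benjamini-Hochberg adjustment gave 2 higher and 6 lower members between the lines in mock-treated cells, 3 higher and 3 lower after UV, and 0 lower after UV in SW13+BRG1 and 0 in SW13+vector cells. Of the 45 calls 9 were lost by the Welch test without adjustment and 32 with it. With each array left out in turn, the lines differed by 5 to 6 higher and 8 to 11 lower members in mock-treated cells and by 6 to 8 higher and 9 to 13 lower after UV. Members lower after UV then numbered 2 to 4 in SW13+BRG1 and 4 to 6 in SW13+vector cells, with 0 higher in both and 0 in the interaction. The causes were not tested.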
